A study of Rattus norvegicus with 16 samples.

Results

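The cytosolic ribosomal protein genes were taken from the table of input RNA as the rows typed purely as protein coding whose symbol was Rpl or Rps followed by digits and at most 1 letter a, x or y, together with Rplp0, Rplp1, Rplp2 and Rpsa. This rule gave 73 of 22663 rows, 48 of the large subunit and 25 of the small subunit, under 66 symbols. The table describes every one of them as a ribosomal protein, and all 73 passed the filter on low values used for the test below. Rpl21 had 4 rows, and Rpl32, Rpl7a, Rps10 and Rps27a had 2 each. A further 8 rows with such symbols, such as Rps15a, Rpl13a and Rpl3, carried another transcript type beside protein coding and fell outside the rule.

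The samples were ovaries of 8 rats, 4 labelled VCD (4-vinylcyclohexene diepoxide, a reactive chemical that depletes the ovary's reserve of primordial and primary follicles) and 4 labelled CON. Each ovary sample gave an input library of fragmented poly(A) RNA and an immunoprecipitate (IP) for N6-methyladenosine (m6A), a methylated base found in many mRNAs, 16 libraries in all. The titles number the rats, and a batch label numbers them 1 to 4 within each group. The labels give no strain, age, dose or time for either group, the organism is labelled as rat although the series title and text name mice, and no label says whether a library pooled several animals.

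A ribosome is built from ribosomal RNA and many proteins, each present in 1 copy except the stalk proteins P1 and P2. The genes for these proteins are active in nearly every cell, and their mRNAs belong to the most abundant in growing cells and in the oocyte, which stores ribosomes for the embryo. In vertebrates their mRNAs begin with a run of pyrimidines, the 5′ terminal oligopyrimidine tract, through which LARP1 and the TOR kinase control their translation together. The m6A mark lies mostly near stop codons and in 3′ untranslated regions of long mRNAs, and ribosomal protein mRNAs are short.

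Expression was given by the authors as FPKM (fragments per transcript length and library size), a unit that keeps no read totals, so the depth of the libraries is unknown. Summed over all genes, the input libraries held between 403809 and 421628 FPKM. Ribosomal RNA genes summed to 28.6 to 56.9 FPKM in VCD libraries, against 8.17 to 25.0 FPKM in CON libraries. The granulosa and oocyte genes Amh, Zp3 and Gdf9 fell in VCD ovaries (limma adjusted p = 0.0297, 0.00493 and 0.00493), 3 of 11 ovary markers tested, where 0.34% of all tested genes were called lower. Another 6 of the 11 were higher by value, among them the granulosa genes Cyp19a1, Foxl2 and Inha (log2 change 1.73, 0.23 and 0.10), none past the threshold. The granulosa genes Fshr and Inhba were lower by value (log2 change -0.50 and -0.02), also not past the threshold. Of 3 adipocyte markers tested, Cfd rose (log2 change 0.38, limma adjusted p = 0.0429), where 0.107% of all tested genes were called higher. Fabp4 was lower by value (log2 change -0.83, with CON 1 at 249 FPKM) and Adipoq differed little (0.02), neither past the threshold. The 4 smooth muscle markers summed to 531 to 819 FPKM in VCD libraries and 427 to 579 FPKM in CON libraries. The 4 endothelium markers summed to 111 to 130 FPKM in VCD libraries and 79.7 to 105 FPKM in CON libraries, and the 4 macrophage markers to 152 to 180 FPKM in VCD libraries and 173 to 237 FPKM in CON libraries, none of these 12 past the threshold and none at 0. The 4 lymphocyte markers summed to 8.88 to 14.8 FPKM in VCD libraries and 15.5 to 22.2 FPKM in CON libraries, and 0 of the 3 tested were called. The part of these shifts in the values below was not tested, and fewer cells of a type and less RNA per cell cannot be told apart in whole ovaries.

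Mean levels of the members over the 8 input libraries ran from 24.4 FPKM for Rpl38 to 1820 FPKM for Rpl41, with a median of 493 FPKM. Rpl41, the smallest ribosomal protein, stood at 1709, 1842, 1758 and 1836 FPKM in VCD ovaries and at 1889, 2099, 1822 and 1602 FPKM in CON ovaries. The VCD values lay inside the CON range. Other members with high means were the stalk base protein Rplp0 at 1569 FPKM, Rpsa, which is also known as the laminin receptor, at 1340 FPKM and Rps27 at 1129 FPKM. Rplp0 measured 1431, 1446, 1767 and 1475 FPKM in VCD ovaries and 1754, 1723, 1522 and 1430 FPKM in CON ovaries, so that 1 VCD library, VCD 3, stood above every CON library and the others lay within the CON range. Rpsa measured 1254, 1164, 1413 and 1225 FPKM in VCD ovaries, against 1598, 1440, 1404 and 1226 FPKM in CON ovaries. Its groups overlapped, through VCD 3 at the high end of VCD and CON 4 at the low end of CON.

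In all, 7 members had means over 1000 FPKM and 8 had means under 100 FPKM. The 5 lowest were Rpl38 at 24.4 FPKM, Rpl9 at 38.0, the chromosome 3 row of Rpl21 at 44.4, Rpl39 at 53.0 and Rps13 at 63.1. In the RefSeq annotation of GRCr8, the genes of 59 members lie on the same chromosome as the row in the table, and those of 14 lie on another. These 14 rows included all 8 under 100 FPKM, had a median of 78.4 FPKM and a median gene span of 483 bases, while the other 59 had a median of 581 FPKM and a span of 2571 bases. The row named Rpl38, for example, is placed on chromosome 8 (63119395 to 63119607, plus strand, 213 bases; the build of the listed coordinates is not stated), and Rps29 on chromosome 13 (91334004 to 91334306, plus strand).

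**Figure D1:**
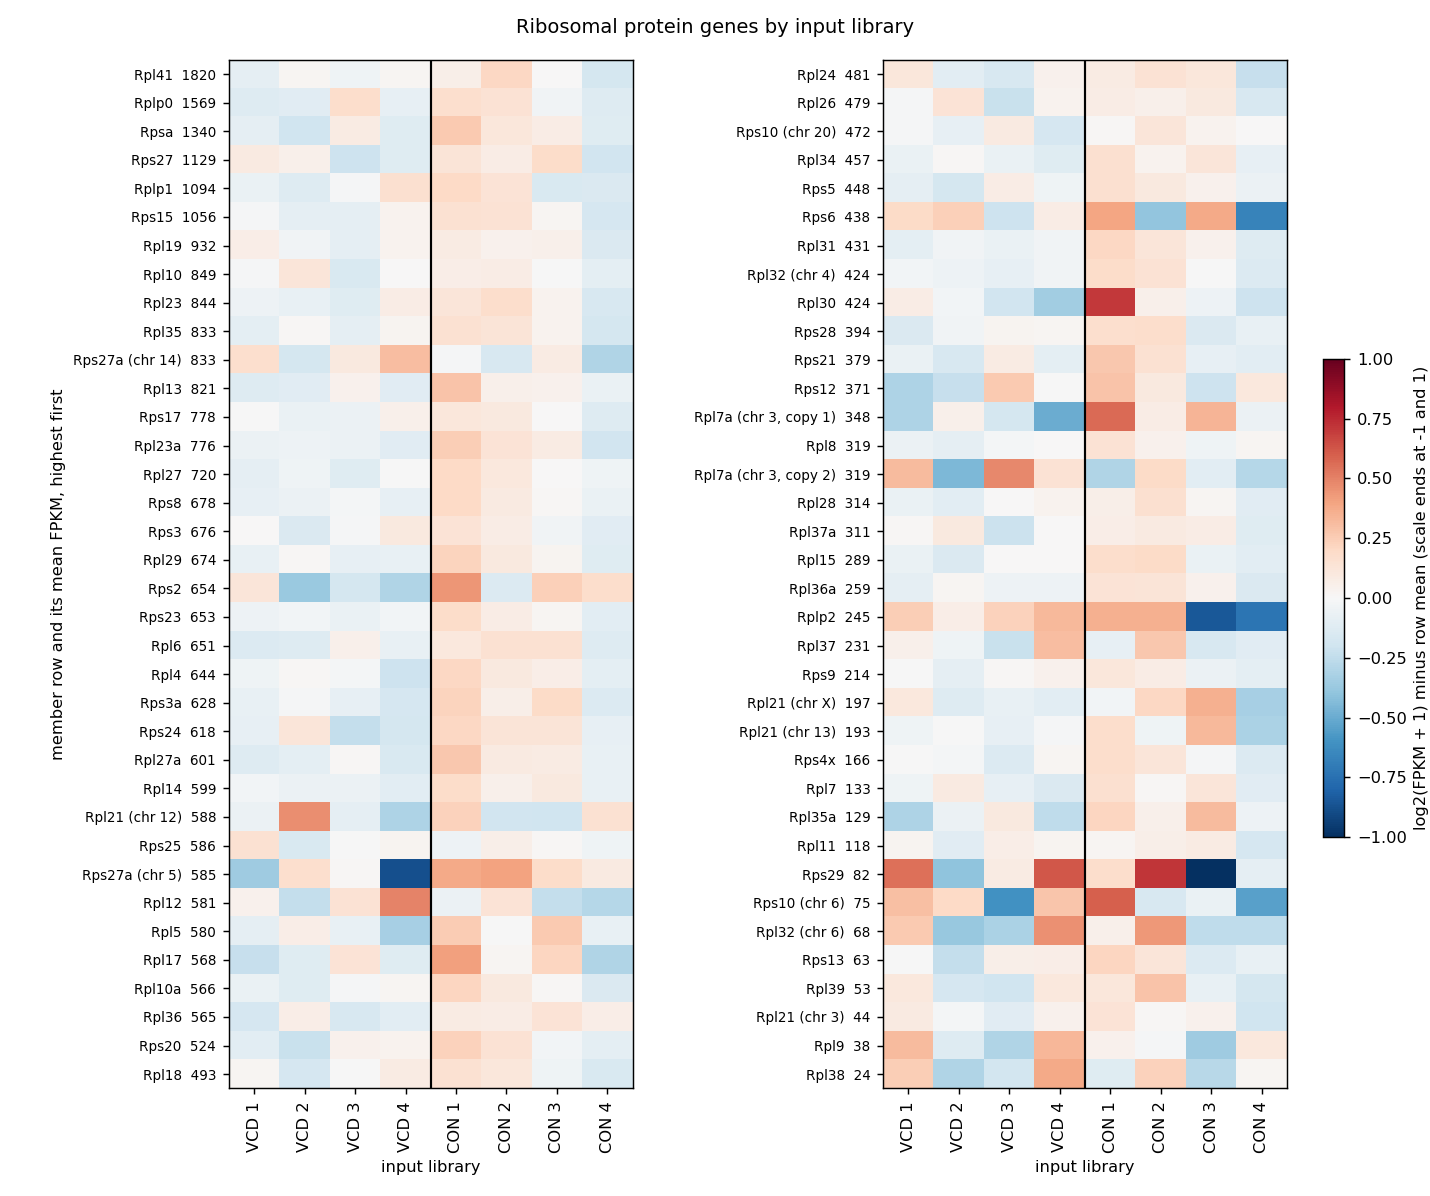
Level of 72 of the 73 rows in the 8 input libraries, as log2(FPKM + 1) minus the mean of the row, with the mean FPKM printed after each name. Over all 73 rows CON 1 holds the highest value of 41 and CON 4 the lowest of 27, while the VCD columns differ less among themselves, and a few rows, such as Rps29, Rplp2, Rps6 and Rps27a on chromosome 5, stand apart in 1 or 2 libraries.

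The comparison of input libraries asks whether ribosomal protein mRNAs differ between VCD and CON ovaries. No member passed the test in either direction. At a limma adjusted p under 0.05 (log2(FPKM + 1), Benjamini-Hochberg over 14978 genes), 0 of 73 members were higher in VCD, where 0.107% of all tested genes were, and 0 of 73 were lower, where 0.34% were. At an unadjusted p under 0.05, 4 members passed, against 18.7% of all tested genes, and the authors' deposited table gave 0 members a q-value under 0.05, against 4.58% of its genes, the lowest being 0.166. No member had every VCD library below every CON library, as 9.58% of tested genes did, and none had every VCD library above every CON library, as 2.27% did.

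By value 58 of 73 members (79.5%) were lower in VCD, against 63.5% of all tested genes. The median log2 change was -0.081 over the members and -0.063 over all tested genes. Scaling each library to a common median turned the members' median to 0.019, the same as that of all genes, and left 27 members below 0. Quantile normalization gave the members a median of -0.112, against 0.008 for all genes, with 62 members below 0, so the members' shift relative to all genes depends on the scaling. The large subunit had a median of -0.078 and the small subunit one of -0.086. The 95% interval of the log2 change lay within -0.5 to 0.5 for 60 members and within -1 to 1 for 70, so for most members the interval leaves out a change of 1 on the log2 scale in either direction.

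**Figure D2:**
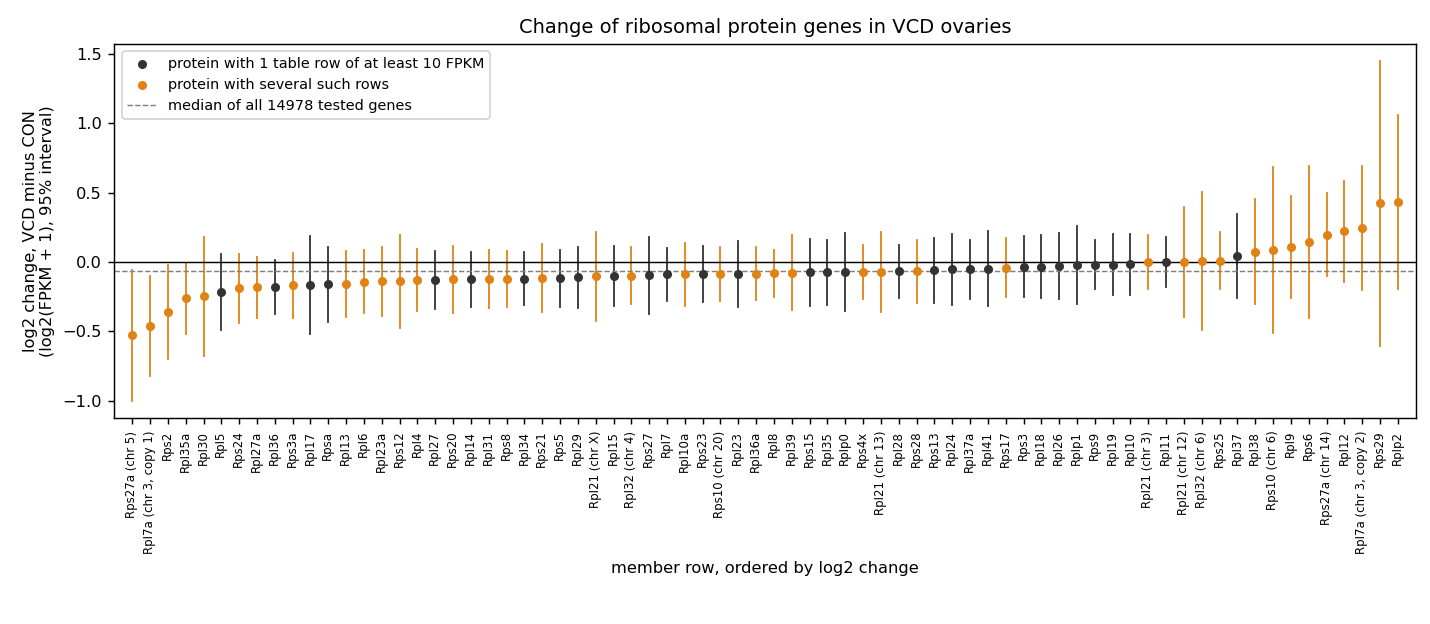
Log2 change of 72 of the 73 rows in VCD minus CON ovaries with its 95% interval from limma, ordered from the lowest (-0.53) to the highest (0.43); colour marks whether other rows of the table are described as the same protein. Of all 73 rows, 60 have intervals within -0.5 to 0.5, and the widest intervals belong to proteins with several rows.

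The 4 members with an unadjusted p under 0.05 were all lower in VCD, and each is a protein for which the table holds several rows. Rpl7a copy 1, the first of a pair of rows on chromosome 3 (4867233 to 4869656, plus strand) for a protein of the large subunit, measured 274, 352, 301 and 241 FPKM in VCD ovaries and 505, 359, 431 and 326 FPKM in CON ovaries. VCD 2 lay above CON 4, and the other VCD libraries lay below every CON library (log2 change -0.46 ± 0.16 SE, limma adjusted p = 0.174). Rps27a on chromosome 5, for a small-subunit protein made as a fusion to ubiquitin, measured 443, 634, 569 and 307 FPKM in VCD ovaries, against 734, 749, 643 and 603 FPKM in CON ovaries (log2 change -0.53 ± 0.21 SE, limma adjusted p = 0.224). Only VCD 2 overlapped the CON values. Rps2, of the mRNA entry site, averaged 572 ± 90.6 FPKM in VCD ovaries and 737 ± 119 FPKM in CON ovaries with SDs over 4 rats each (limma adjusted p = 0.241). Rpl35a averaged 117 ± 15.3 FPKM in VCD ovaries and 140.5 ± 15.9 FPKM in CON ovaries (limma adjusted p = 0.261).

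Next by size of decrease came Rpl30 and Rpl5, neither past an unadjusted p of 0.05. Rpl30 measured 436, 405, 362 and 325 FPKM in VCD ovaries and 675, 428, 399 and 359 FPKM in CON ovaries, where CON 1 stood far above the rest. Rpl5 and Rpl11 can, together with 5S ribosomal RNA, bind and inhibit Mdm2, the ubiquitin ligase of p53. Rpl5 was lower by value and Rpl11 was level, with overlapping 95% intervals that both included no change. Rpl5 measured 542, 601, 545 and 456 FPKM in VCD ovaries and 685, 573.5, 689 and 546 FPKM in CON ovaries (log2 change -0.22, 95% interval -0.49 to 0.06). Rpl11 measured 120, 109, 123 and 120 FPKM in VCD ovaries and 119, 123, 124 and 104 FPKM in CON ovaries (log2 change 0.00, 95% interval -0.18 to 0.18). The Rpl11 values of the groups lay on top of each other.

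The largest increases by value were those of Rplp2, Rps29, Rpl7a copy 2, Rpl12, Rps27a on chromosome 14 and Rps6. Rplp2, an acidic stalk protein that recruits elongation factors, measured 277, 245, 275 and 293 FPKM in VCD ovaries and 300, 299, 130 and 141 FPKM in CON ovaries. CON 3 and CON 4 lay far below every VCD library, and CON 1 and CON 2 above all of them (log2 change 0.43 ± 0.28 SE, limma adjusted p = 0.430). Rps6, the substrate of S6 kinase by which TOR activity is often read, measured 486, 502, 369 and 447 FPKM in VCD ovaries and 560, 323, 553 and 267 FPKM in CON ovaries. The CON libraries stood on either side of all VCD libraries (log2 change 0.15 ± 0.24 SE, limma adjusted p = 0.780). Rps29, at 108, 55.7, 78.2 and 114 FPKM in VCD ovaries and 83.5, 122, 22.8 and 69.2 FPKM in CON ovaries, was the member with the widest spread within groups (SD 0.793 on the log2 scale), and its groups overlapped throughout.

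Other textbook subunits differed little by value. Rps3, at the mRNA entry, averaged 668 ± 45.8 FPKM in VCD ovaries and 684 ± 53.5 FPKM in CON ovaries. Rpl10, which completes the large subunit before it joins translation, averaged 845 ± 66.6 FPKM in VCD ovaries and 854 ± 45.7 FPKM in CON ovaries. The stalk protein Rplp1 averaged 1084 ± 96.0 FPKM in VCD ovaries and 1105 ± 141 FPKM in CON ovaries (SD, n = 4 each group). Their 95% intervals on the log2 scale were -0.25 to 0.19, -0.24 to 0.20 and -0.30 to 0.26. All 3 had overlapping groups.

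Together the 73 members summed to 37529, 37182, 37718 and 37747 FPKM in VCD ovaries, against 43576, 41323, 39551 and 35344 FPKM in CON ovaries. The VCD sums lay close together (37544 ± 260 FPKM) and inside the wide range of CON (39948 ± 3484 FPKM, SD, n = 4 each). As a share of all FPKM the members made up 9.10 ± 0.11% in VCD libraries and 9.79 ± 0.79% in CON libraries (SD, n = 4 each). CON 1 held the highest value of 41 members, and CON 4 the lowest of 27. Read within the batch label, the VCD sum differed from the CON sum by -13.9%, -10.0% and -4.6% in batches 1, 2 and 3 and by +6.8% in batch 4, where only 21 members were lower in VCD.

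Within groups the members varied more among CON than among VCD ovaries. The coefficient of variation of the members had a median of 7.28% in VCD and 10.4% in CON, and it was larger in CON for 53 of 73 members (72.6%). Among the 2968 other protein-coding genes within the members' range of mean FPKM, its median was 10.4% in VCD and 8.37% in CON, and it was larger in CON for 35.1%. The members share their libraries and are not independent of each other, and CON 1 and CON 4 were high and low for many of them at once. The part of RNA quality or cell content in this spread was not tested. Without CON 4, 20 of 73 members had every VCD library below every CON library, where 15.6% of all tested genes did, and without CON 1 none had, where 11% did. Under quantile normalization 3 had, where 5.47% of all tested genes did.

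Members whose protein is named in several rows of the table had a higher median spread than the others. Beside the members, the table holds 117 rows whose description names 1 of the cytosolic ribosomal proteins, most of them under LOC symbols, 74 of them with at least 10 FPKM. Over the 8 libraries their means summed to 12037 FPKM, against 38746 FPKM for the members. Reads from copies that are nearly alike cannot be told apart. The sequences of these rows were not compared here, so whether a row holds reads of another was not tested. The 32 members whose protein had no other row of at least 10 FPKM had log2 changes between -0.22 and 0.04 and a median SD within groups of 0.114 on the log2 scale. The 41 members with several such rows had changes between -0.53 and 0.43 and a median SD of 0.149. Their SDs ran from 0.062 to 0.793, against 0.081 to 0.242 for the 32. The classes were not matched on FPKM.

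In several proteins the rows moved against each other from library to library. Of the S27A pair, the chromosome 14 row measured 929, 730, 885 and 1021 FPKM in VCD ovaries and 818, 740, 872 and 670 FPKM in CON ovaries, highest in VCD 4, where the chromosome 5 row given above was lowest. Summed, the pair measured 1376, 1368, 1458 and 1333 FPKM in VCD ovaries and 1558, 1496, 1519 and 1277 FPKM in CON ovaries. The sum varied within groups by an SD of 0.10 on the log2 scale, against 0.345 for the chromosome 5 row, and its log2 change was -0.076. Rpl7a copy 2 (chromosome 3, 5459160 to 5461583, plus strand) measured 388, 228, 436 and 344 FPKM in VCD ovaries and 253, 357, 290 and 256 FPKM in CON ovaries, so the pair of Rpl7a rows had changes of opposite sign. With the third row described as L7A, they summed to 829 ± 56.0 FPKM in VCD ovaries and 889 ± 77.0 FPKM in CON ovaries (SD, n = 4 each; log2 change -0.10).

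Rplp2 and Rps6 gave the same picture. LOC100911575, described as the same stalk protein P2, measured 281, 263, 291.5 and 298 FPKM in VCD ovaries and 317, 303, 369 and 359 FPKM in CON ovaries, highest in CON 3 and CON 4, where Rplp2 was lowest. The 4 rows for P2 summed to 800 ± 30.5 FPKM in VCD ovaries and 807 ± 74.9 FPKM in CON ovaries, a log2 change of -0.01 (SD, n = 4 each). LOC100911372, described as S6, measured 477, 499, 528 and 439 FPKM in VCD ovaries and 556, 684, 551 and 586 FPKM in CON ovaries, and its sum with Rps6 had a log2 change of -0.12, where Rps6 alone had 0.15. For Rps29 the main level lay in a row outside the rule, LOC108352650, with 1678 FPKM in VCD ovaries and 1821 FPKM in CON ovaries on average, while the row named Rps29 averaged 89.0 FPKM in VCD ovaries and 74.4 FPKM in CON ovaries.

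**Figure D3:**
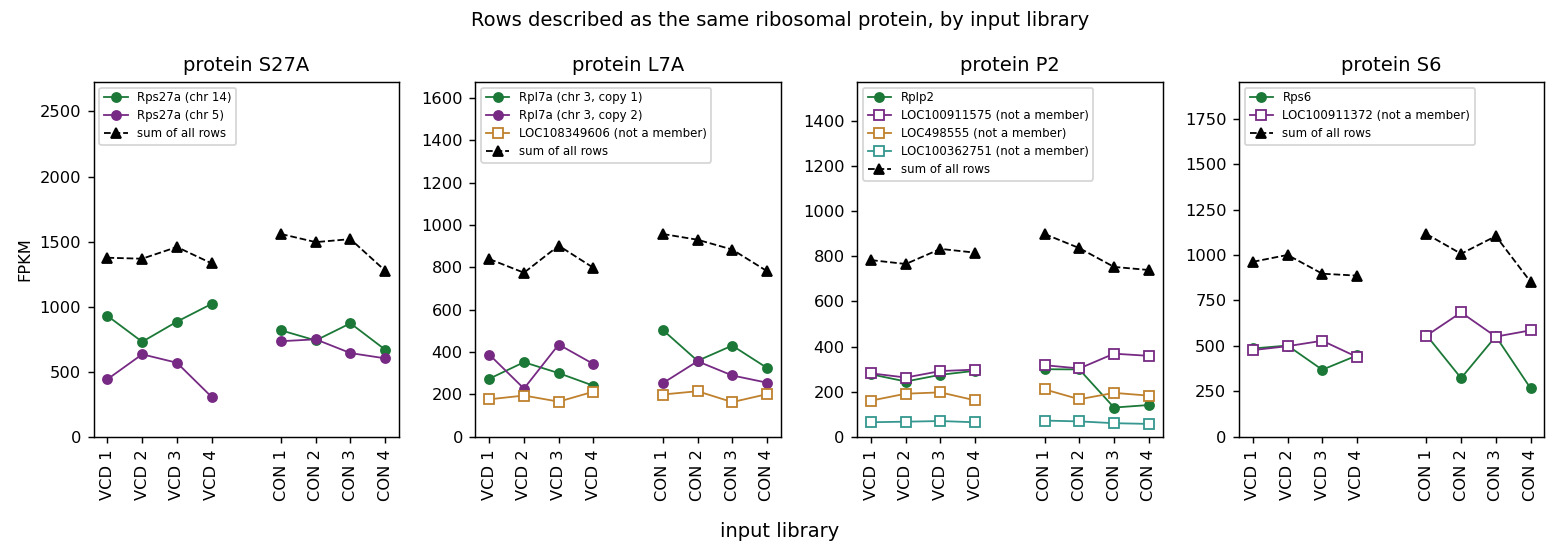
FPKM of rows described as proteins S27A, L7A, P2 and S6 in each input library, members as filled circles, rows outside the rule as open squares and the sum of the rows as black triangles; lines join libraries of a group only for reading. Within groups each sum varies less on the log2 scale than the most variable member row of its protein, for example where the chromosome 14 row of Rps27a is highest and the chromosome 5 row lowest in VCD 4.

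Summed by protein, the 66 proteins had log2 changes between -0.30 (L35A) and 0.08 (L38), with a median of -0.086. Of these sums 62 were below 0, where 63.5% of all tested genes were. The sums were formed from unscaled FPKM only. Among the 73 member rows, 27 were below 0 after scaling to a common median and 62 under quantile normalization. No sum had every VCD library below every CON library, as 9.58% of tested genes did, or every one above, as 2.27% did. In 21 of the 34 proteins with several rows the sum varied less within groups than the most variable member row. In the rest of the 34 it did not, and the sum for L38 had the highest SD, 0.519 on the log2 scale. Copies differ in length, so these sums of FPKM are approximate. The row sums were formed after the values had been seen.

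The m6A peak lists, called by the authors on pooled replicates of each group, were set against the members' expression to ask how often these abundant mRNAs carried a listed peak. A peak was listed in 26 of 73 members (35.6%) in VCD ovaries and in 23 of 73 (31.5%) in CON ovaries. Of the 2968 other protein-coding genes in the same range of mean FPKM, 2324 (78.3%) had a VCD peak and 2343 (78.9%) had a CON peak. Without rows described as cytosolic ribosomal proteins, the shares of other genes were 79.1% for VCD and 79.7% for CON. The 38 such rows themselves had a VCD peak in 7 and a CON peak in 8.

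The members' share was below that of other genes in every bin of FPKM. Between 400 and 800 FPKM, the bin that holds more members than any other, 12 of 33 members (36.4%) had a VCD peak and 10 (30.3%) a CON peak. Of 52 other genes there, 28 had a VCD peak (53.8%) and 32 a CON peak (61.5%). From 800 to 2000 FPKM it was 5 of 13 members in each list, against 14 of 19 other genes in each. The other genes of these bins and of the spans below include rows described as the same ribosomal proteins. Without such rows, 62.1% (VCD) and 66.7% (CON) of 66 other genes of at least 400 FPKM had a peak. Of 46 members at that level, 17 had a VCD peak and 15 a CON peak. Bins under 200 FPKM hold at most 6 members each. Gene span, which includes introns, was also compared. With a span of 1105 to 3512 bases, 14 (VCD) and 12 (CON) of 37 members had a peak, against 71.1% (VCD) and 68.8% (CON) of 304 other genes in the FPKM range. With shorter spans it was 5 (VCD) and 4 (CON) of 18 members, against 47.5% (VCD) and 50.8% (CON) of 122 other genes. The length of the mature mRNA is not in the files and was not compared.

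**Figure D4:**
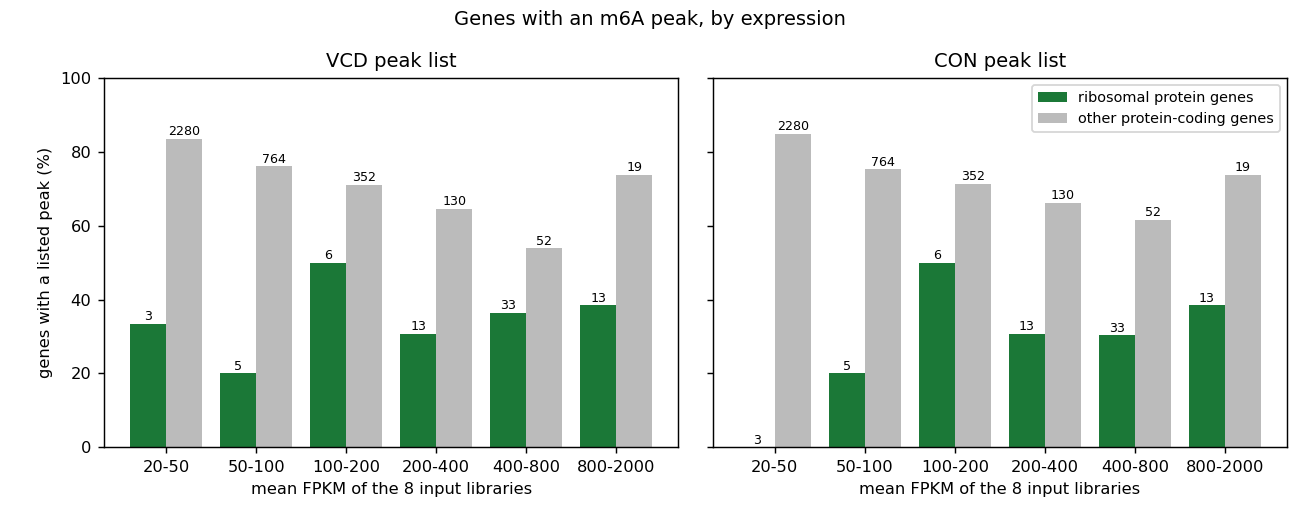
Share of genes with a listed m6A peak in the VCD list (left) and the CON list (right), by mean FPKM of the input libraries, for ribosomal protein genes (green) and other protein-coding genes (grey), with the number of genes above each bar. The green bars lie below the grey ones in all 6 bins of both lists, and bins under 200 FPKM hold 3 to 6 members. The grey bars include rows outside the rule that are described as the same ribosomal proteins.

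The subunits differed in these counts. Of 48 large-subunit members, 22 (45.8%) had a VCD peak and 20 (41.7%) a CON peak, and of 25 small-subunit members 4 (16%) had a VCD peak and 3 (12%) a CON peak. Members on the chromosome that RefSeq gives had a VCD peak in 23 of 59 and a CON peak in 21, and the other 14 members a VCD peak in 3 and a CON peak in 2. A peak in both lists was present in 22 members, 19 of the large subunit and, of the small subunit, Rps12, Rps15 and Rps24. Rps6, Rpl27a, Rpl38 and Rpl39 had one in the VCD list only, and the chromosome 6 row of Rpl32 in the CON list only. Each list was called on pooled libraries, so these 5 differences have no replicate check.

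No peak was listed for 46 members, 25 of the large and 21 of the small subunit. They included Rplp0, Rpsa, Rps27, Rplp1 and Rpl19, the 5 highest by FPKM, and Rps3, Rpl10 and Rplp2. Their median level was 476 FPKM, against 584 FPKM for the 22 members with a peak in both lists. The median log2 change in input RNA was -0.07 for the members with no listed peak and -0.09 for those with a peak in both lists.

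The members held 28 VCD peaks and 25 CON peaks. At a stop codon lay 16 of 28 VCD peaks (57.1%) and 16 of 25 CON peaks (64.0%) by the authors' annotation, against 32.9% of all VCD peaks and 32.4% of all CON peaks. None was labelled as lying at a start codon, the label of 13.8% of all peaks in both lists. Each peak carries a single label, so a peak labelled otherwise can still cover a start codon. Gene spans of many members are short relative to the peaks, and the VCD peaks covered a median of 31.4% of the span of their gene. The peak of Rpl41, labelled as lying at a stop codon, covered the whole gene in both lists.

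The members' peaks had a lower median enrichment than all peaks. Peaks of other genes with a similar FPKM or gene span were not compared. The authors' log2 enrichment of IP over input had a median of 1.79 in VCD and 1.74 in CON for the members' peaks, against 2.40 in VCD and 2.31 in CON for all peaks. The highest value was that of Rpl29, for a large-subunit protein, whose peak at the stop codon (chromosome 8, 115133147 to 115133396, plus strand, as in the VCD list and counted from 1) had 2.97 in VCD and 2.93 in CON. Rpl35 had 2.82 in VCD and 2.64 in CON, Rpl7 2.51 in VCD and 2.44 in CON, and Rpl28 2.38 in VCD and 2.32 in CON. The peak of Rpl7 was annotated to the 5′ untranslated region, the sole such peak among the members. Among the 4 members with a peak in the VCD list only, Rpl38, the member with the lowest FPKM, had 2.77.

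Between the lists, the highest peak of the 22 shared members was higher in VCD for 18, with a median difference of 0.11 on the log2 scale. The same count was not made for other genes with a peak in both lists. Among all entries of the authors' differential peaks, described below, 82.8% were higher in VCD. Those entries are not the highest peak per gene of each list, so the shares are not like for like. The count therefore cannot be called particular to the members. Rpl21 on chromosome 12 had 1.55 in VCD and 1.11 in CON, and Rpl15 had 1.59 in VCD and 1.15 in CON, the 2 largest increases by value. Rps12 had 1.86 in VCD and 2.56 in CON, and Rpl11 1.79 in VCD and 2.39 in CON, the largest decreases. In Rps12 the value belongs to an intronic peak of 125 bases. In the CON list this peak lies within a longer peak at the stop codon, whose log2 enrichment was 1.18. In Rpl11 it belongs to a peak in the 3′ untranslated region, beside an exonic peak with 1.54 in VCD and 1.43 in CON.

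The authors' deposited table of differential peaks holds 16 entries for 15 members, all with a higher log2 enrichment in VCD, where 82.8% of all entries were higher. The differences ran from 0.06 (Rpl28) to 0.44 (Rpl21 on chromosome 12), with a median of 0.12, against 0.19 over all entries. Of the 16, 15 had an adjusted p under 0.05 in the authors' deposited table, against 49.8% of all entries, and 0 were marked significant, against 7.79%, since none reached a difference of 1. Among entries of other protein-coding genes in the members' FPKM range, 64.4% had an adjusted p under 0.05, 28 of 1455 were marked significant, and the median difference was 0.13, close to that of the members. The table gives no value per rat, so the differences could not be set against the spread between rats. For Rpl15 the authors' deposited table gives 1.56 in VCD and 1.47 in CON at a merged peak, a difference of 0.09, smaller than that between the peak lists.

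**Figure D5:**
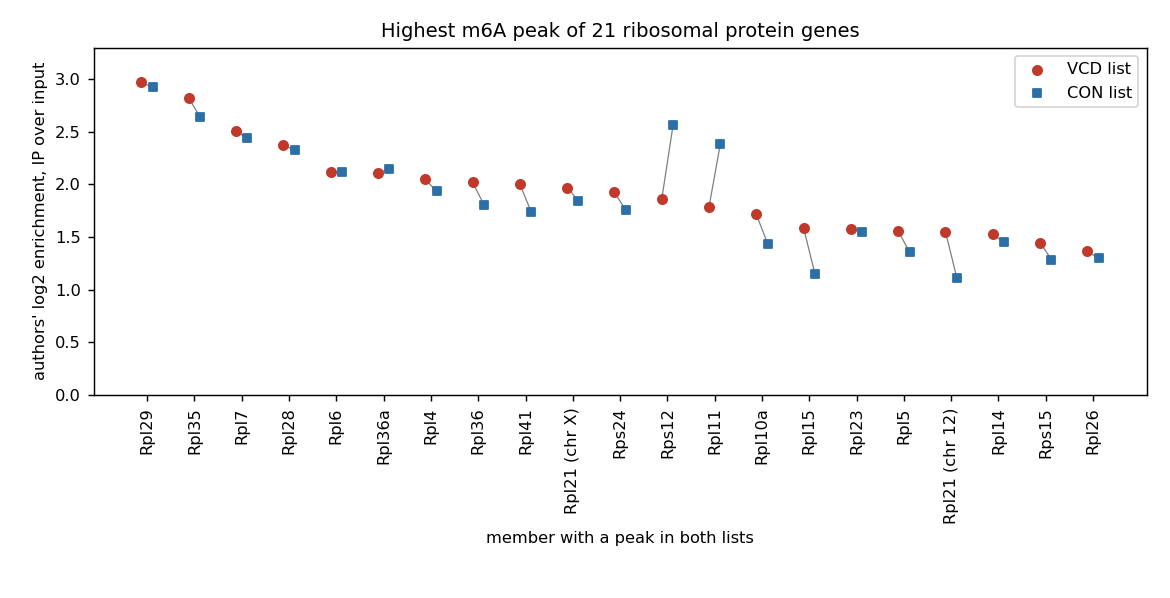
Authors' log2 enrichment of IP over input at the highest peak of 21 of the 22 members with a peak in both lists, VCD as circles and CON as squares, ordered by the VCD value. Rpl29 is highest at 2.97 in VCD and 2.93 in CON, 18 of the 22 members are higher in VCD, and Rps12 and Rpl11 are lower in VCD by 0.71 and 0.60. Among all entries of the authors' differential peaks, 82.8% were higher in VCD.

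The sequence around the start sites of the members was read from RefSeq (GRCr8). Runs of pyrimidines there were compared with those at other starts, and between members with and without a peak. A window of 30 bases, from 15 before the annotated start, was found for 46 starts of 45 symbols on the same chromosome as the member. The windows of the 5 members with the highest VCD enrichment among those with a peak in both lists and a single window are shown first, with the longest run of C and T in capitals.

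Rpl29 (chromosome 8, 115947628 to 115947657, plus strand): gggCCTTTCTCTTTCTCTTCCggtcccagg
Rpl35 (chromosome 3, 43165907 to 43165936, minus strand): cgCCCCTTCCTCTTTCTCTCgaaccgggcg
Rpl28 (chromosome 1, 78083518 to 78083547, minus strand): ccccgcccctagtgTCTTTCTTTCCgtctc
Rpl6 (chromosome 12, 41011676 to 41011705, minus strand): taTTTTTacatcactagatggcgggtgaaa
Rpl36a (chromosome X, 102059434 to 102059463, plus strand): ccgcctataaaCTTCCgttgctgctctagc

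The 5 members with the highest FPKM among those with no listed peak follow.

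Rplp0 (chromosome 12, 46718376 to 46718405, minus strand): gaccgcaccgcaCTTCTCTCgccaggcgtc
Rpsa (chromosome 8, 128728864 to 128728893, plus strand): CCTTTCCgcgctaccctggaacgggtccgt
Rps27 (chromosome 2, 177964592 to 177964621, minus strand): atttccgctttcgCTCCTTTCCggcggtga
Rplp1 (chromosome 8, 71290858 to 71290887, minus strand): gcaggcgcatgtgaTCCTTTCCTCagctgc
Rpl19 (chromosome 10, 83519049 to 83519078, plus strand): cgcgaccagcaagCTCTTTCCTTTCgctgc

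The runs were 18, 18, 11, 5 and 5 bases in the first set and 8, 7, 9, 10 and 12 bases in the other. A run of at least 8 was present in 30 of the 46 windows (65.2%), against 11.4% of 33416 windows of other RefSeq starts and 11.6% of those of other protein-coding genes in the FPKM range. For runs of at least 6 the members' share was 80.4%, against 28.3% of other starts, and for runs of at least 10 it was 47.8%, against 4.84%. Only the sense strand was searched, and each window was counted once by its longest run. Bases before the annotated start, which are not part of the annotated mRNA, were counted too. The marked runs of Rpsa and Rpl6 lay wholly before the start. The longest run was 20, in Rpl34. Rpl11, Rpl18, Rpl26, Rpl36, Rpl41 and Rps12 had runs of 3.

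A run of at least 8 was present in 12 of 20 windows (60.0%) of members with a listed peak and in 18 of 26 (69.2%) of members without one. For runs of at least 6 the shares were 65.0% with a peak and 92.3% without, and for runs of at least 10 they were 55.0% with a peak and 42.3% without, so the order turned with the length. Mitochondrial ribosomal proteins, which serve another ribosome, had a run of at least 8 in 15.4% of 65 windows and translation factors in 31.4% of 35. A window depends on where RefSeq sets the start, and a run of pyrimidines there is a description of the sequence only.

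None of the genes on the lists below passed the test, where 0.107% of all tested genes were called higher and 0.34% lower. Of 74 mitochondrial ribosomal protein genes tested, 0 were called in either direction, with a median log2 change of 0.04, and of the list's 75 rows 65 had a VCD peak (86.7%) and 67 a CON peak (89.3%). Of 36 ribosome assembly and RNA polymerase I genes 0 were called, with a median of -0.13, the lowest of these lists. Its 4 members with the smallest p were all lower in value in VCD. Nop58, of the box C/D particles that methylate ribosomal RNA, averaged 15.2 ± 2.23 FPKM in VCD ovaries and 23.7 ± 3.44 FPKM in CON ovaries (SD, n = 4 each; limma adjusted p = 0.0764). The nucleolar chaperone Npm1 averaged 132 ± 20.9 FPKM in VCD ovaries and 200 ± 27.8 FPKM in CON ovaries (SD, n = 4 each; limma adjusted p = 0.0925), and nucleolin, Ncl, 122 ± 14.4 FPKM in VCD ovaries and 166 ± 16.8 FPKM in CON ovaries (limma adjusted p = 0.0989). Tsr1 averaged 11.7 ± 1.04 FPKM in VCD ovaries and 14.3 ± 0.287 FPKM in CON ovaries (limma adjusted p = 0.123).

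Translation factors had a median log2 change of -0.06, with 0 of 36 called in either direction, and peaks in 27 (VCD) and 26 (CON) of 36 rows. Eif2s2, the beta subunit of the factor that brings the initiator tRNA, averaged 36.8 ± 2.65 FPKM in VCD ovaries and 47.5 ± 3.11 FPKM in CON ovaries (SD, n = 4 each; limma adjusted p = 0.0778). Eif3j, Eif3a and the poly(A)-binding protein gene Pabpc1 followed by p, at limma adjusted p values of 0.0955, 0.142 and 0.185, all lower in value in VCD. Of 22 genes of the TOR pathway and of regulators of mRNAs with the pyrimidine tract, 0 were called (median -0.08). Rps6kb1, the S6 kinase, averaged 8.85 ± 1.16 FPKM in VCD ovaries and 12.3 ± 0.882 FPKM in CON ovaries (SD, n = 4 each; limma adjusted p = 0.0913), and Larp1 26.8 ± 2.08 FPKM in VCD ovaries and 31.9 ± 2.17 FPKM in CON ovaries (limma adjusted p = 0.161). A peak was listed for 22 of the 22 in VCD and 21 in CON. On a list of Rack1 with paralogs and fusion genes, such as Rpl39l, Rpl36al and Rps27l, 0 of 9 genes tested were called, with a median of -0.07.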

How the data were processed

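The authors deposited FPKM per gene and input library, per the file headers, with a fold ratio of group means, its log2 value, p-values and q-values. Their peak lists give a log2 enrichment and p-values per peak on pooled replicates. Tools named in the submitters' processing notes, without their roles, are HOMER 4.10, StringTie 2.1.2, HISAT2 2.0.4, fastp 0.19.4 and edgeR 4.1. The notes name GRCh38, which the rat identifiers go against, so the build of the coordinates is unknown here.

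Input libraries were compared for the 14978 of 22663 genes whose mean reached 0.5 FPKM, all 73 members among them, by limma 3.58.1 in R 4.3.3 on log2(FPKM + 1) values (lmFit, eBayes with trend), treatment as the sole term, p-values adjusted by Benjamini-Hochberg over all tested genes. Fold changes on this scale understate the changes of low genes. P-values measure the spread between these libraries, taken as separate rats from their titles. The batch label gives same-numbered VCD and CON libraries a shared number, and their deviations from group means correlated at -0.01, -0.085, 0.007 and -0.066.

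Peaks were matched by gene identifier. A listed start lay 1 base before the gene in 19 of the members' 53 peaks and at the gene start in 0, so starts were raised by 1. RefSeq windows came from the GRCr8 table. Named genes were the 6 largest and 6 smallest changes, 5 highest and 5 lowest levels, up to 20 members with peaks, a list of textbook subunits, and up to 4 members of each other list. Rows named for a copy, a share or a start window lie outside that rule and were chosen after their values were seen. Textbook subunits without a row under the rule were not analysed here, and 1 member is neither named nor drawn. The members and lists were chosen with earlier results of these data known. Alternatives were another pseudocount, filters, scaling, the block and libraries left out.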

Additional observations from a re-analysis of the deposited data

Results flagged for a closer look

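Of 88 groups of 4 libraries checked, 2 had a library far from the other 3, where chance gives about 1 in 20. Rplp0 stood at 1767 FPKM in VCD 3, against 1431 to 1475 FPKM in the other VCD libraries. Rpl29 stood at 676 FPKM in VCD 2, against 633 to 639 FPKM in the other VCD libraries.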

How the results depend on the processing

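No member was called under any of the 16 alternatives of the test, and the lowest adjusted p of a named member was 0.125 (Rpl7a copy 1, without CON 4). With the replicate number as a block the members' median log2 change was -0.081, 0 members were called higher and 0 lower, and the lowest adjusted p was 0.186 (Rps2). The median was 0.019 under scaling to a common median, where 31 members changed sign, -0.112 under quantile normalization, and -0.14 to -0.046 when 1 library was left out. Members with every VCD library below every CON library numbered 3 under quantile normalization, 0 to 20 when 1 library was left out (20 without CON 4; 1 without VCD 1, CON 2 or CON 3; 4 without VCD 2 or VCD 3), 5 with both VCD 2 and VCD 4 left out, and 1 with CON 2 and VCD 4 left out. Of all tested genes, 5.47% lay so under quantile normalization, 10.3% to 15.6% when 1 library was left out (15.6% without CON 4, 12.9% without VCD 2, 13.5% without VCD 3), 15.6% with VCD 2 and VCD 4 both left out, and 14.6% where CON 2 and VCD 4 were dropped. Members with every VCD library above every CON library numbered 0 to 1 (1 without VCD 2) and 2 with both VCD 2 and VCD 4 left out, against 5.11% of all tested genes without VCD 2 and 6.89% without both. Fewer libraries per group make such separation easier. The summed FPKM of VCD differed from that of CON by -6.0%, and by -9.5% to -3.1% when 1 library was left out. With peaks of a log2 enrichment of at least 2 only, an alternative chosen after seeing the data, 10 members had a VCD peak and 8 a CON peak, against 52.7% (VCD) and 50.2% (CON) of other genes in the FPKM range. The other peak alternatives gave 26 to 28 members in VCD and 23 to 26 in CON. Lengths of runs, splits by gene span, row sums and the RefSeq chromosome check were also chosen after seeing the data. Depth is unknown, near-identical copies may share reads, and peaks were called on pooled libraries, which limits what the values of single rows and peaks can show.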
